A study of Mus musculus with 8 samples.

Results

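The heat-shock and DnaJ chaperone genes of lumbar dorsal root ganglia (DRGs) were compared between α-Gal A(-/0) and wildtype mice. Members were the genes whose name on the array starts with Dnaj, Hspa, Hspb, Hsp90, Hspd, Hspe or Hsph, which gave 73 genes with 112 probes among 34650 gene names. The groups were male mice aged 20 to 24 weeks: α-Gal A(-/0) animals of the C57BL/6J strain per the labels, which lack the lysosomal enzyme α-galactosidase A in all tissues and serve as a model of Fabry disease, and untreated wildtype C57BL/6J animals. Each group had 4 samples, and a sample pooled the L3 to L5 DRGs of 2 mice. A single Agilent slide with 8 one-color arrays took all samples. The mice came from separate inbred colonies, so an effect of the deletion and a difference between the colonies cannot be told apart.

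Chaperones bind unfolded stretches of protein and help them fold. The Hsp70 proteins (Hspa genes) do so in a cycle of ATP hydrolysis that is started by J-domain proteins (Dnaj genes), which also bring the client. Hsp90 proteins act late in folding, on kinases and receptors among others, small heat-shock proteins (Hspb genes) hold denatured protein without using ATP, and Hsp110 proteins (Hsph1) exchange the nucleotide of Hsp70. Each compartment has its own set: the cytosol the widest, the endoplasmic reticulum (ER) Hspa5 (BiP) and Hsp90b1 (GRP94), and the mitochondrial matrix Hspa9 (mortalin) with the folding chamber made of Hspd1 (Hsp60) and Hspe1 (Hsp10). Cytosolic members are induced through heat-shock factor 1 and ER members through the unfolded protein response. Sensory neurons are rich in several of them, among them the small heat-shock protein Hspb1.

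The DNA elements through which these inductions are known to run stand in some member promoters. Matches from some of these promoters are printed below. Promoters were taken from RefSeq (build GRCm38.p6) as the 250 bases before and 50 bases after a start site, and 59 of the 73 members had one. Hspe1 and Hspd1 lie head to head on chromosome 1, and the same stretch, chr1:55088049-55088086, is upstream of both. It holds a pair of overlapping heat-shock elements, each of 3 units of GAA or its complement TTC spaced by 2 bases. Capitals mark the matches, 72 to 89 bases before the start of Hspe1 and 127 to 144 before that of Hspd1.
Hspe1 (plus strand): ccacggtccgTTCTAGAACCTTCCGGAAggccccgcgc
Hspd1 (minus strand): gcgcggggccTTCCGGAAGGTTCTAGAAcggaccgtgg
Dnajb6 (chr5:29735842-29735874, plus strand): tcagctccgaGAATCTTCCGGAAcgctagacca

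The ER stress element (CCAAT, 9 free bases, CCACG) was found upstream of Hspa5, of Dnajc3, a co-chaperone of Hspa5, and in 2 copies upstream of Hsp90b1. Capitals mark the element, which reads on the opposite strand in the nearer copy of Hsp90b1.
Hspa5 (chr2:34772015-34772053, plus strand): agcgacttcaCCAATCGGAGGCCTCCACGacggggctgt
Dnajc3 (chr14:118937817-118937855, plus strand): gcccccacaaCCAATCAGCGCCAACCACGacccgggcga
Hsp90b1, far copy (chr10:86705628-86705666, minus strand): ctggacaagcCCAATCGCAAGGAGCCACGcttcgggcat
Hsp90b1, near copy (chr10:86705523-86705561, minus strand): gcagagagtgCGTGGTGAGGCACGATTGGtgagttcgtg

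A heat-shock element of 3 units was found, on either strand, in 4 of the 59 member promoters (6.78%; Dnajb6, Hspd1, Hspe1 and Hsph1) and in 0.662% of the promoters of 27025 genes. Its inner part GAANNTTC, which the longer element contains, was in 13 member promoters (22.0%) and in 9.04% of all. The ER stress element was in 3 member promoters (5.08%), all of them ER members, and in 0.137% of all. The site TGACGTGG, named for ATF6 and XBP1, was found among the members in Dnajc25 (1.69%) and in 0.714% of all promoters. These are matches of letters and were not measured as binding sites.

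Expression was read as log2 signal, the log2 of the spot intensity after quantile normalization between arrays. A gene was represented by its brightest probe among those well above background on all 8 arrays, which left 65 of the 73 members and 21063 genes in all. The members that were not tested were Dnajb7, Dnajb8, Dnajb13, Dnajc5g, Hspa1l, Hspb3, Hspb7 and Hspbap1. A gene is called when its adjusted p is under 0.05 in limma, with the method of Benjamini and Hochberg over the 29432 tested probes. By that rule 3.07% of the tested probes were called in either direction, 2.02% of the tested genes were called higher in α-Gal A(-/0) DRGs and 1.10% were called lower. The number of arrays limits the precision, and p-values measure the spread between samples that each pool 2 mice.

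The probe of the disrupted gene Gla read 16.49 to 16.72 on the 8 arrays, and whether it lies in the part lost from the targeted allele is not given in the sources used here, so it checks nothing about the labels. All 16 sensory neuron markers examined were well above background on every array, while 6 of 9 spinal cord markers and 7 of 10 skeletal muscle markers were not. Of the neuron markers, Snap25, a synaptic vesicle fusion protein, was lower (log2 difference -0.47, adjusted p = 0.00443 in limma) and Tac1, the substance P precursor, was higher (0.34, adjusted p = 0.0493). In that list 5 were positive and 11 negative, with a median of -0.035. At an unadjusted p under 0.05, 3 of the 16 were higher and 4 lower, where 10.6% and 7.11% of all tested genes were. The 10 Schwann cell and myelin markers and the 9 fibroblast and meninges markers all had negative log2 differences, with 0 called in either list and 2 and 1 of them lower at an unadjusted p under 0.05. Their summed signals ran from 120156 to 130226 in α-Gal A(-/0) and 130300 to 145237 in wildtype DRGs for Schwann cells, and from 231180 to 260418 and 256723 to 297427 for fibroblasts. The markers of satellite glia (5 of 8 tested negative), macrophages (9 of 10), endothelium (8 of 9), smooth muscle and pericytes (7 of 7, median -0.21) and skeletal muscle (2 of 3) gave 0 calls. At an unadjusted p under 0.05, 1, 1, 2, 1 and 0 of them were lower. The 1 positive macrophage marker was higher at that threshold, with a log2 difference of 0.51. Of 3 tested spinal cord markers 2 were positive and 1 negative, from -0.46 to 0.39. The highest, Aqp4, was called (0.39, adjusted p = 0.0411 in limma). At an unadjusted p under 0.05, 2 of the 3 were higher and 1 was lower. In bulk tissue, fewer cells of a type and less RNA per cell cannot be told apart, and the part of tissue makeup in the values below was not tested. Wildtype sample 1 stood apart from the others: over all tested genes it was the lowest of the 8 samples in 27.7% and the highest in 23.3%.

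Across the chaperone genes the 2 genotypes differed little. The 65 tested members had a median log2 difference (α-Gal A(-/0) minus wildtype) of 0.048, against 0.019 for all tested genes, and ranged from -0.13 for Hspa12a to 0.60 for Dnajc22. Of them 42 were positive and 23 negative (64.6% positive, against 55.7% of all tested genes). In limma 1 member was called higher, Dnajc12, and 0 were called lower, where 2.02% and 1.10% of all tested genes were. At an unadjusted p under 0.05, 4 were higher (Dnajc12, Hspb6, Dnajc14 and Dnajc22) and 0 lower, where 10.6% and 7.11% of all tested genes were. With the methods' t-test, adjusted in the same way, 0 members were called in either direction, where 0.589% of all tested genes were called higher and 0.332% lower. The study's own lists were filtered on unadjusted p and fold change, a rule not applied here. All 4 α-Gal A(-/0) samples lay above all 4 wildtype samples in 3 members (Dnajc12, Hspa5 and Hspa9) and below them in 0, against 8.62% and 5.12% of all tested genes.

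The intervals bound what the brightest probes of the tested members could have missed, and untested members have none. Some dimmer probes of the same genes had wider intervals. That of 1 Dnajb5 probe ran from a fold change of 0.593 to 1.18, and that of 1 Hspa4 probe from 0.388 to 2.17. For 64 of the 65 tested members the 95% interval of the difference lay within a 1.5-fold change in either direction, the exception being Dnajc22, and this held for 87.4% of all tested genes. For 40 of them (61.5%) it lay within a 1.2-fold change, which held for 37.7% of all tested genes. The plot of all member differences shows these intervals by compartment.

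**Figure D1:**
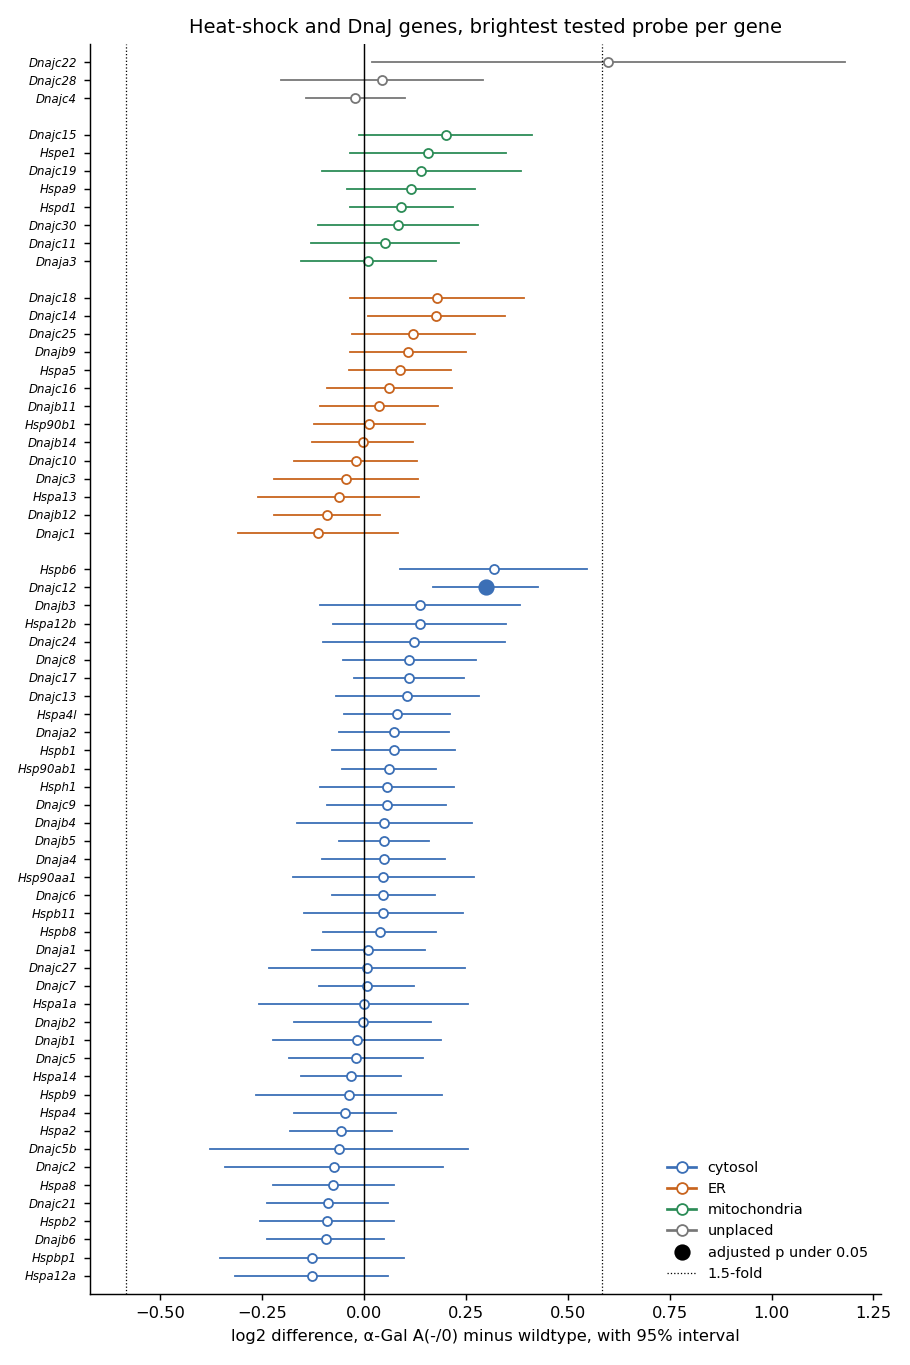
Log2 difference between α-Gal A(-/0) and wildtype DRGs (horizontal axis) of the 65 tested heat-shock and DnaJ genes (rows, by compartment), with the 95% interval from limma and n = 4 samples per group. The filled point is the 1 called gene, Dnajc12, and the dotted lines mark a 1.5-fold change, which only the interval of Dnajc22 crosses.

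Dnajc12, the called member, encodes a cytosolic J-domain protein that serves the aromatic amino acid hydroxylases, the enzymes that start the synthesis of serotonin and the catecholamines. Its probe lies on chr10:62871211-62871270 of mm9. The log2 signals were 12.41, 12.41, 12.37 and 12.46 in α-Gal A(-/0) DRGs and 12.02, 12.19, 12.14 and 12.11 in wildtype DRGs. The groups did not overlap, with means of 12.41 ± 0.038 and 12.11 ± 0.070 (SD, n = 4 each). The fold change was 1.23 with a 95% interval from 1.13 to 1.34 (log2 difference 0.30, SE 0.056, adjusted p = 0.0288 in limma). The log2 difference was 0.37 within slide row 1, which holds 3 α-Gal A(-/0) samples and wildtype sample 1, and 0.32 within slide row 2.

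The call of Dnajc12 was lost without any 1 of the 4 α-Gal A(-/0) samples and without wildtype sample 3 or 4. Its adjusted p in limma was 0.0873, 0.0943, 0.0645 and 0.0942 without α-Gal A(-/0) sample 1, 2, 3 and 4, and 0.0698 and 0.0763 without wildtype sample 3 and 4, while the log2 difference stayed between 0.27 and 0.32. With the methods' t-test its adjusted p was 0.0673 and its unadjusted p was 0.000917. Of 27 other tested genes within 1 Mb of the probe, 1 was called higher (Vps26a) and 0 lower, and their median log2 difference was 0.085.

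**Figure D2:**
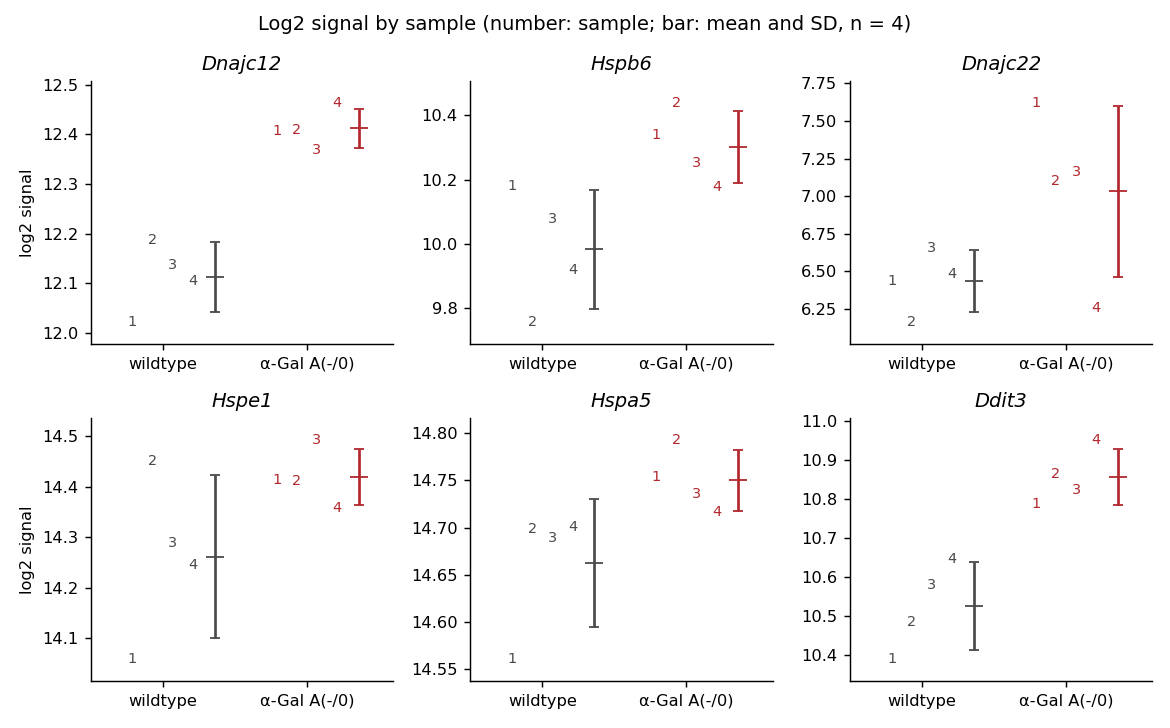
Log2 signal (vertical axis, a separate scale for each gene) in the 4 wildtype and 4 α-Gal A(-/0) samples for Dnajc12, Hspb6, Dnajc22, Hspe1, Hspa5 and the stress gene Ddit3. Digits are sample numbers and bars give the mean and SD (n = 4); Dnajc12, Hspa5 and Ddit3 do not overlap between the groups, and wildtype sample 1 is the lowest for Dnajc12, Hspe1, Hspa5 and Ddit3.

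The cytosolic set held 48 genes, of which 40 were tested, 24 with a positive and 16 with a negative log2 difference and a median of 0.043. Dnajc12 was the 1 called gene, and all 40 intervals lay within a 1.5-fold change. Dnajb3 had a log2 difference of 0.14 (SE 0.11, adjusted p = 0.546 in limma), and its groups overlapped. The 8 tested Hspa genes of the cytosol ran from -0.13 to 0.14, with 6 of them negative. Hspa8, the constitutive Hsp70 that also uncoats clathrin vesicles, had log2 signals of 16.50, 16.56, 16.38 and 16.49 in α-Gal A(-/0) and 16.67, 16.55, 16.50 and 16.50 in wildtype DRGs. These overlap, with a log2 difference of -0.075 (SE 0.065, adjusted p = 0.586 in limma).

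Hspa1a, the classical heat-inducible Hsp70, read 8.56, 8.68, 8.44 and 8.22 in α-Gal A(-/0) and 8.63, 8.34, 8.35 and 8.59 in wildtype DRGs. Its log2 difference was -0.00055, with a 95% interval from -0.26 to 0.26. Hspa1b, a nearly identical copy, was not analysed here, and its RNA may bind the same probe. Hspa12a (-0.13, adjusted p = 0.460) and Hspa12b (0.14, adjusted p = 0.487), distant relatives of Hsp70, were the ends of the range.

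The Hsp90 genes of the cytosol were steady. Hsp90ab1, the constitutive form, read 17.11, 17.13, 17.08 and 17.04 in α-Gal A(-/0) and 17.05, 16.98, 17.05 and 17.05 in wildtype DRGs, a log2 difference of 0.061 (SE 0.051, adjusted p = 0.572 in limma). Hsp90aa1, the inducible form, had a log2 difference of 0.048 (SE 0.098), and Hsph1, the Hsp110 protein whose promoter carries a heat-shock element downstream of the start, one of 0.056 (SE 0.072). Dnajb1 and Dnaja1, J-domain proteins that work with Hspa8 and Hspa1a, had log2 differences of -0.016 (SE 0.091) and 0.010 (SE 0.061). Dnajb6, which keeps polyglutamine proteins from aggregating, stood at -0.094 (SE 0.063, adjusted p = 0.478), and its 4 probes ran from -0.095 to 0.18. Dnajc5, cysteine string protein of synaptic vesicles, stood at -0.019 (SE 0.072), and Dnajc6, the auxilin that brings Hspa8 to clathrin coats, at 0.048 (SE 0.055).

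Among the small heat-shock proteins, Hspb6 had the largest difference. Also called Hsp20, it is best known from muscle. Its log2 signals were 10.34, 10.44, 10.25 and 10.18 in α-Gal A(-/0) and 10.18, 9.76, 10.08 and 9.92 in wildtype DRGs. The lowest α-Gal A(-/0) sample and wildtype sample 1 stood at the same level, so the groups just met. The log2 difference was 0.32 (SE 0.10, 95% interval 0.088 to 0.55, adjusted p = 0.145 in limma) and passed the threshold only where arrays were weighted by their quality (adjusted p = 0.0457).

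Hspb1 (Hsp27), which rises in DRG neurons after nerve injury, read 16.70, 16.81, 16.63 and 16.61 in α-Gal A(-/0) and 16.70, 16.53, 16.63 and 16.60 in wildtype DRGs. The log2 difference was 0.073 (SE 0.066, adjusted p = 0.608 in limma), and its 95% interval reached a fold change of 1.17. Atf3, another injury-induced gene of DRG neurons and a transcription factor, was called higher by contrast, with a log2 difference of 1.44 (adjusted p = 0.00193). It belonged to a list of handling and early response genes, of which 10 were tested. In that list 7 were positive and 3 negative, with a median of 0.094, 1 called higher and 0 lower. The other tested genes with an Hspb name (Hspb2, Hspb8, Hspb9 and Hspb11) lay between -0.091 and 0.047.

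Of the untested cytosolic members, Dnajb7, Dnajb13, Dnajc5g, Hspb7 and Hspbap1 were not well above background on any array. Hspb3, a small heat-shock protein of motor neurons and muscle, was well above background on all 4 α-Gal A(-/0) arrays and on 0 wildtype arrays. It read 4.97 to 5.45 in α-Gal A(-/0) and 4.47 to 5.03 in wildtype DRGs, and the ranges overlap. Dnajb8 was well above background on 4 α-Gal A(-/0) arrays and 1 wildtype array, and Hspa1l on 3 and 1. These are given as levels near background, with no comparison between the groups.

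In the ER set all 14 genes were tested, 8 positive and 6 negative, with a median log2 difference of 0.024 and 0 called. At an unadjusted p under 0.05, 1 was higher (Dnajc14) and 0 lower, and the methods' t-test called 0. All 14 intervals lay within a 1.5-fold change and 10 within a 1.2-fold change. Hspa5, the Hsp70 of the ER and sensor of its folding load, read 14.75, 14.79, 14.74 and 14.72 in α-Gal A(-/0) and 14.56, 14.70, 14.69 and 14.70 in wildtype DRGs. The groups did not overlap, but wildtype sample 1 lay apart from the other wildtype samples. The log2 difference was 0.088 (SE 0.055, adjusted p = 0.451 in limma), 0.053 without wildtype sample 1, and its 95% interval ran from a fold change of 0.974 to 1.16. In slide row 1 the log2 difference was 0.20 and in slide row 2 it was 0.021.

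Hsp90b1, the Hsp90 of the ER, which folds Toll-like receptors and integrins, read 14.23, 14.29, 14.37 and 14.23 in α-Gal A(-/0) and 14.37, 14.22, 14.23 and 14.25 in wildtype DRGs. The log2 difference was 0.013 (SE 0.060, adjusted p = 0.936 in limma). Dnajc3, the third carrier of the ER stress element printed above, had a log2 difference of -0.045 (SE 0.078), so the 3 carriers ran from -0.045 to 0.088 with a median of 0.013 and 0 called. The tested members with a promoter but without the element had a median of 0.047. Of the tested members 51 had a promoter, and Dnajc12 was not among them. Of the J-domain proteins that hand clients to Hspa5, Dnajb9 stood at 0.11 (SE 0.062, adjusted p = 0.406), Dnajb11 at 0.036 (SE 0.064) and Dnajc10, which also reduces disulfides, at -0.021 (SE 0.066).

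The largest ER differences belonged to membrane J-domain proteins. Dnajc14, which regulates the export of G-protein coupled receptors from the ER, read 8.24, 8.46, 8.39 and 8.46 in α-Gal A(-/0) and 8.34, 8.21, 8.18 and 8.11 in wildtype DRGs. α-Gal A(-/0) sample 1 lay within the wildtype range, and the log2 difference was 0.18 (SE 0.074, adjusted p = 0.260 in limma). Dnajc18 had a log2 difference of 0.18 (SE 0.094, adjusted p = 0.364) and of 0.12 without wildtype sample 1. Dnajc25 had one of 0.12 (SE 0.066, adjusted p = 0.385) and Dnajc1, which binds ribosomes at the ER, one of -0.11 (SE 0.086, adjusted p = 0.539). Dnajb14 lay at -0.0031 (SE 0.055).

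All 8 mitochondrial members were tested, and all 8 log2 differences were positive, from 0.011 for Dnaja3 to 0.20 for Dnajc15. All 8 intervals lay within a 1.5-fold change and 3 within a 1.2-fold change. Their median was 0.10, 0 were called in limma or by the methods' t-test, and 0 had an unadjusted p under 0.05 in either direction. Wildtype sample 1 was the low sample here: the median deviation of these 8 genes from their own means was -0.21 in that sample and between -0.037 and -0.019 in the other wildtype samples. In the α-Gal A(-/0) samples it was 0.059, 0.074, 0.062 and 0.015. Without wildtype sample 1 the median was 0.082 and 7 of 8 differences were positive. The count was also 7 of 8 without α-Gal A(-/0) sample 3, with array weights and with the slide row as a block. Within slide row 1, where wildtype sample 1 is the only wildtype sample, the median was 0.24, and within slide row 2 it was 0.046.

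**Figure D3:**
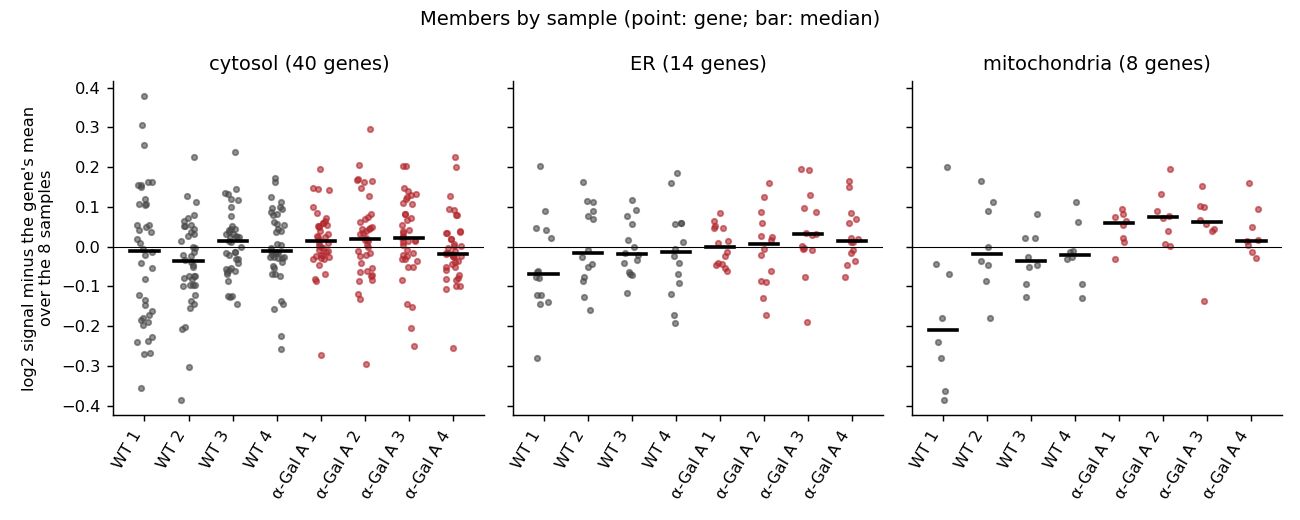
Deviation of each tested member from its mean over the 8 samples (vertical axis, log2) by sample (WT, wildtype; horizontal axis), in panels for the cytosol (40 genes), ER (14) and mitochondria (8); points are genes and black bars medians. The bar of wildtype sample 1 lies at -0.21 for the mitochondrial genes and at -0.0099 for the cytosolic genes.

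Hspe1 read 14.41, 14.41, 14.49 and 14.36 in α-Gal A(-/0) and 14.06, 14.45, 14.29 and 14.24 in wildtype DRGs. Wildtype sample 2 lay among the α-Gal A(-/0) values, and the log2 difference was 0.16 (SE 0.084, adjusted p = 0.372 in limma) and 0.091 without wildtype sample 1. Its 3 probes had log2 differences from 0.16 to 0.23, and on the 1 with 0.23 the groups did not overlap (adjusted p = 0.0741). Hspd1, which shares the promoter stretch printed above, read 14.97, 15.09, 15.02 and 14.93 against 14.91, 14.87, 14.93 and 14.93, with a log2 difference of 0.091 (SE 0.055, adjusted p = 0.434). The 4 carriers of a 3-unit heat-shock element, Hspe1, Hspd1, Hsph1 and Dnajb6, thus ran from -0.094 to 0.16 by their brightest probes. Their median was 0.073 and 0 were called. The tested members with a promoter but without this element had a median of 0.044. Dnajc12, the called member, had no promoter to search, so it could not count among the carriers.

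Hspa9 read 13.19, 13.22, 13.17 and 13.18 in α-Gal A(-/0) and 12.89, 13.13, 13.15 and 13.12 in wildtype DRGs. The groups did not overlap, with wildtype sample 1 far below the rest, and the log2 difference was 0.12 (SE 0.069, adjusted p = 0.425 in limma) and 0.056 without that sample. Dnajc15, a J-domain protein of the inner membrane, read 13.52, 13.53, 13.56 and 13.62 against 13.09, 13.55, 13.36 and 13.43. Its log2 difference was 0.20 (SE 0.093, adjusted p = 0.311), the largest of the set, and 0.11 without wildtype sample 1. Dnajc19, of the protein import motor, had a log2 difference of 0.14 (SE 0.11, adjusted p = 0.536) and of 0.036 without wildtype sample 1, and its 3 probes ran from -0.097 to 0.18.

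Dnajc4, Dnajc22 and Dnajc28 were not assigned to a compartment. Dnajc22 had the largest log2 difference of all members, 0.60 (SE 0.26, adjusted p = 0.269 in limma), with log2 signals of 7.62, 7.10, 7.16 and 6.25 in α-Gal A(-/0) and 6.44, 6.16, 6.65 and 6.48 in wildtype DRGs. Of the α-Gal A(-/0) samples 3 lay above all wildtype samples and sample 4 lay within them, and the 95% interval was wide, from a fold change of 1.01 to 2.27. The log2 difference was 0.85 within slide row 1 and -0.18 within slide row 2, where sample 4 is the only α-Gal A(-/0) sample. It was 0.34 with the slide row as a block, 0.34 with normexp background correction and 0.40 without α-Gal A(-/0) sample 1, and without sample 4 it was 0.86 and passed the threshold (adjusted p = 0.0454 in limma). Dnajc4 (-0.021) and Dnajc28 (0.044) lay near 0.

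Probes of the same gene did not always tell the same story. Of 23 members with several tested probes, 14 had log2 differences of 1 sign, and in 7 the probes were more than 0.2 apart. The widest gaps were those of Hspa13, whose probes had log2 differences of -0.062 and 0.25, of Dnajb5, at 0.049 and -0.26, and of Dnaja1. For Dnaja1 the brightest probe had a log2 difference of 0.010, while a second read 7.89, 8.17, 8.05 and 8.07 in α-Gal A(-/0) and 7.61, 7.79, 7.75 and 7.77 in wildtype DRGs. On that second probe the groups did not overlap, with a log2 difference of 0.31 (adjusted p = 0.0620 in limma). Of the 98 tested member probes, the probe of Dnajc12 was the only one called, where 3.07% of all tested probes were called.

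Genes that work with the chaperones were examined in 4 lists. For comparison, 2.02% of all tested genes were called higher and 1.10% lower in limma. At an unadjusted p under 0.05 in limma, 10.6% of all tested genes were higher and 7.11% lower. Of 29 heat-shock factors and cytosolic co-chaperones, all tested, 0 were called in limma in either direction (2 higher and 1 lower at an unadjusted p under 0.05), and the median log2 difference was -0.0063. The smallest p belonged to St13, which stabilizes Hsp70 (0.16, adjusted p = 0.133), Cdc37l1 (0.21, adjusted p = 0.190) and Unc45a, a myosin chaperone (-0.19, adjusted p = 0.198). Of the 15 genes of the CCT chaperonin and prefoldin, which fold actin and tubulin, 0 were called and 0 had an unadjusted p under 0.05, with a median of 0.035. Its log2 differences ran from -0.16 to 0.14, and the smallest p belonged to Pfdn4 (0.14), Cct4 (0.076) and Pfdn6 (-0.075). Of 43 tested genes of ER folding and the unfolded protein response, 1 was called higher and 0 lower (5 and 1 at an unadjusted p under 0.05), with a median of 0.035. The log2 differences of this list ran from -0.42 to 0.60, and neither end was called. Of 21 tested genes of mitochondrial folding and proteases, 0 were called (3 higher and 1 lower at an unadjusted p under 0.05), with a median of 0.058, led by Hscb, a J-domain protein of iron-sulfur cluster assembly (0.32, adjusted p = 0.102). With the methods' t-test 0 genes of the 4 lists were called at an adjusted p under 0.05. The unadjusted p of that test was 0.00402 for Ddit3, which is described next.

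The called gene of these lists was Ddit3 (CHOP), a transcription factor induced late in the unfolded protein response and by other stresses that act through Atf4. Its log2 signals were 10.79, 10.86, 10.82 and 10.95 in α-Gal A(-/0) and 10.39, 10.48, 10.58 and 10.65 in wildtype DRGs. The groups did not overlap, and the fold change was 1.26 (log2 difference 0.33, SE 0.072, adjusted p = 0.0473 in limma). The call was close to the threshold. It was past it in 5 of 17 alternatives, whose adjusted p ran from 0.0229 to 0.136, and leaving out any 1 of the 8 samples ended it, with an adjusted p of 0.0918, 0.136, 0.101 and 0.127 without α-Gal A(-/0) sample 1 to 4 and 0.0599, 0.0905, 0.0887 and 0.0545 without wildtype sample 1 to 4. Sec63, which recruits Hspa5 to the translocon, had a log2 difference of 0.16 (adjusted p = 0.198) and Txndc11 one of -0.17 (adjusted p = 0.194).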

How the data were processed

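Total RNA of L3 to L5 DRGs was labelled with Cy3. The authors deposited scanner files whose intensity values were background-adjusted and detrended by Agilent Feature Extraction 10.7.3.1, and a table of log2 values that they quantile normalized. The table served as an alternative; its columns follow their own arrays at r of 0.99989 or above, and 36 of its lines are not probes.

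Of 62976 spots per array 59305 were not controls, and 0 were saturated; the 93 to 221 that Feature Extraction flagged as outliers were dropped. Log2 processed signals were averaged per probe (55681 probes) and quantile normalized with limma 3.58.1 in R 4.3.3. Between 56.5% and 60.8% of probes were well above background on an array (at least 0.5 of a probe's spots). The 29432 probes that were so on all 8 arrays were tested with limma (lmFit, eBayes, two-sided) and adjusted by Benjamini and Hochberg. Of the 112 member probes 101 were matched to RefSeq by accession. Probe positions are on mm9 and promoters on GRCm38.p6. Tables were joined in Python 3.11.15 with pandas 2.3.3.

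Genes named are called members, in each compartment the 4 largest differences and the 3 brightest, and in the co-chaperone lists the called gene and up to 3 with the smallest p; others were chosen after their values were seen. Members, compartments and lists were chosen with earlier results of these data known. Compartments were assigned from general knowledge. Alternatives were the background correction, the normalization, the filter, the methods' t-test, a replicate block, the slide row, array weights, the mean over probes and leaving out each sample. The scripts were tested on simulated data.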

Additional observations from a re-analysis of the deposited data

Results flagged for a closer look

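Of the 68 groups of 4 samples behind the named genes, 4 held a sample farther from its neighbor than Dixon's criterion allows (the gap as a share of the group's range), where chance gives about 1 in 20 groups. Wildtype sample 1 was low for Hspa5, at 14.56 against 14.69 to 14.70 in the other wildtype samples, and for Hspa9, at 12.89 against 13.12 to 13.15. Wildtype sample 2 was low for Hsp90ab1, at 16.98 against 17.04 to 17.05, and for Dnajb14, at 12.67 against 12.73 to 12.74. Over all 65 tested members 13 of 130 groups were so, with wildtype sample 1 the distant sample in 6 of them.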

How the results depend on the processing

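Members called higher were 0 with the methods' t-test and 0 with the replicate block, 2 with array weights (Dnajc12 and Hspb6), 0 to 1 when a sample was left out, and 1, Dnajc12, under the other alternatives; members called lower were 0 in all 17. Without α-Gal A(-/0) sample 4 the 1 called member was Dnajc22. For Dnajc12 the adjusted p in limma was 0.135 with the replicate block and 0.00697 with array weights, and its log2 difference was positive in all 18 alternatives. Replicate numbers do not pair the samples, since deviations of same-numbered samples had r from -0.25 to 0.063, and 284 probes were called with the block against 904 without it. Probes called were 266 with the methods' t-test, 556 with no filter on background, 2102 with array weights and 408 (without α-Gal A(-/0) sample 2) to 1043 (without wildtype sample 1) when a sample was left out. Genes called in the 4 co-chaperone lists were 3 with array weights (Ddit3, Grpel2 and Hscb), 0 with the methods' t-test, the replicate block, no filter or probes required on 4 arrays, and 0 whichever sample was left out. The median log2 difference of all members was 0.070 and that of ER members 0.068 with scaling to the 75th percentile, and the latter was 0.049 with the mean over probes. When a sample was left out the former lay between 0.031 (without wildtype sample 1) and 0.063, and the latter between 0.0064 (without wildtype sample 2) and 0.035. For cytosolic members it was 0.021 with array weights, 0.0145 with normexp background correction, and 0.015 to 0.049 when a sample was left out. For mitochondrial members it lay between 0.082 and 0.16 in all alternatives. The cause of these changes was not tested.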

Other observations

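Hspa4, an Hsp110 relative in the cytosol, has 3 tested probes, and 1 of them split the samples across the genotypes; the gene was picked after its values were seen. On the probe at chr11:53073594-53073653 of mm9 the log2 signal was 10.60 in α-Gal A(-/0) sample 3 and 11.00 in wildtype sample 1, and between 8.87 and 8.99 in the other 6 samples. On a second probe, at chr11:53073347-53073406, the same samples were the highest at 12.90 and 12.84, with 12.33 to 12.49 in the others. On the brightest probe, at chr11:53075085-53075144, all 8 samples lay between 13.43 and 13.61. None of the 3 probes was called. Of 29432 tested probes, 5 had both of these samples at least 1 log2 unit above the other 6, those of Dus4l, Gprc5b, Hoxb8, Hspa4 and Slc16a6, and 3 had both at least 1 below.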
